A study of Mus musculus with 72 samples.

Results

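The transcripts of 9 genes that carry glucose metabolism and the insulin signal in hepatocytes were followed in liver and compared with epididymal white adipose tissue (eWAT) and pituitary of the same mice. The genes were listed by name: Pklr, G6pc1, Pck1, Fbp1, Gys2, Pygl, Insr, Irs1 and Irs2 are 9 of the 55416 genes counted, of which 54749 had a gene symbol, and each matched 1 Ensembl gene. RNA sequencing had been carried out on 72 libraries, from 3 tissues of each of 24 adult male FVB.129P2 mice of a sighted line, in 4 groups of 6. Dams had either been fed freely (FED) or given 80% of the food of a paired FED dam, a 20% caloric restriction (CR20), from embryonic day 15 until weaning on postnatal day 21. From 8 weeks of age the sons ate a control diet with 10% of its energy as fat (CTRL) or a high fat diet with 45% (HFD), which gave the groups FED-CTRL, FED-HFD, CR20-CTRL and CR20-HFD. Pups of each dam had been divided between the diets, and the labels do not give the litter of a mouse. The diet lasted 10 weeks for the sequenced males, whereas the labels also name a longer period and do not give it per mouse. The sources used here do not give the feeding state at collection.

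The liver takes up glucose after a meal and burns or stores it, and makes glucose during fasting, so the same cell holds opposed enzymes. Liver pyruvate kinase (Pklr) closes glycolysis, Pck1, Fbp1 and G6pc1 catalyse steps of gluconeogenesis that bypass the irreversible steps of glycolysis, and Gys2 and Pygl build and break down glycogen. Insulin binds its receptor (Insr), which phosphorylates the adaptors Irs1 and Irs2 and so passes the signal on to phosphoinositide 3-kinase and Akt. Transcription of several of these genes is known to follow feeding, insulin, glucagon and glucose.

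Library totals were 9842813 to 19928212 counts in liver, 11589675 to 22364963 in eWAT and 18299494 to 27601208 in pituitary, and 3 counts corresponded to between 0.109 and 0.305 CPM, the count scaled to the normalised total of its library. In liver the summed level of the hepatocyte markers was 72095 to 117330 CPM, which fits the label, whereas the adipocyte sum was 16.4 to 39.4 CPM. The eWAT libraries were less even. The adipocyte sum fell to 10247 CPM in FED-HFD mouse 23 and to 13192 CPM in CR20-CTRL mouse 5. Hepatocyte transcripts reached 786 CPM in FED-HFD mouse 10, 544 CPM in mouse 5 and 149 CPM in FED-HFD mouse 13. The pituitary library of mouse 10 held 180 CPM of adipocyte transcripts, against 22.5 to 31.8 CPM in the other 23. Counts of called genes were repeated without these libraries. Over 180 pairs of libraries of 1 tissue and group, 0 held identical values. Liver RNA had been extracted by a column and the other tissues by RNAzol, so tissue and extraction cannot be told apart.

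The upstream sequences of 5 members are printed because these genes carry the results below: Pklr, Fbp1 and Pygl were lower on the high fat diet, and Irs1 and Irs2 varied together between livers. They are the 250 bases before the RefSeq start site, on the GRCm38.p6 assembly, 5′ to 3′ on the strand of the gene, with the matches to the searched motifs in capitals. For Pklr the downstream of the 2 listed start sites, that of the liver form, is shown at chr3:89136373-89136622 on the plus strand. The other windows are chr13:62888283-62888532 for Fbp1, chr12:70227684-70227933 for Pygl, chr1:82291440-82291689 for Irs1 and chr8:11008930-11009179 for Irs2, all on the minus strand.
Pklr: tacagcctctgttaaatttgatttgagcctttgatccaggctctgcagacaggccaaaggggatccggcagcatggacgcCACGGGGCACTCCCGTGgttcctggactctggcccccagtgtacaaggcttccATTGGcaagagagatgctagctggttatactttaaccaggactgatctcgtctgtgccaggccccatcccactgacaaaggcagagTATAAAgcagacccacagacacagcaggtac
Fbp1: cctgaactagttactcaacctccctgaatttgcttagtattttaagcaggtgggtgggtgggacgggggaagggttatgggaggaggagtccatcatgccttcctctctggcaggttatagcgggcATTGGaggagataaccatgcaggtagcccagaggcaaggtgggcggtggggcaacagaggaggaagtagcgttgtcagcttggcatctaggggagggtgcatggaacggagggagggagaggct
Pygl: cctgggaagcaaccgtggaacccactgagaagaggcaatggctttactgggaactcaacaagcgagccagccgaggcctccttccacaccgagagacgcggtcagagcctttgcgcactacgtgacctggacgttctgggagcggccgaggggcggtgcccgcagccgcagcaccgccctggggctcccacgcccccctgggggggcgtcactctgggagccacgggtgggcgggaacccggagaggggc
Irs1: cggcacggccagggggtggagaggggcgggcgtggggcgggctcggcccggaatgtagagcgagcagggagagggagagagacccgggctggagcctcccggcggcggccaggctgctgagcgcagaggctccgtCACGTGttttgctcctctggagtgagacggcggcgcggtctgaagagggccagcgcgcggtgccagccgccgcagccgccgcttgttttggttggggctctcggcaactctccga
Irs2: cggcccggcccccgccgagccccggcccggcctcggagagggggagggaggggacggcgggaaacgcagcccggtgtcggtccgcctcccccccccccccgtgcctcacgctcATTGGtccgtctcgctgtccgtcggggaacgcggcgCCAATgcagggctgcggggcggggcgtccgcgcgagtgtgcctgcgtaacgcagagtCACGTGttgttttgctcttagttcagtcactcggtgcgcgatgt

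Of the 9 members, 7 had a window in the RefSeq table, Pklr with 2 start sites, which gave 8 windows (Gys2 and Insr had none). The letters searched on both strands were TGACGTCA (cyclic AMP response element), GTAAACA (forkhead core), CACGTG (E-box), TATAAA and CCAAT, and, added after the sequences had been seen, CACG and CGTG separated by 9 bases, the general form of a carbohydrate response element. The liver start of Pklr held this last pattern from -170 to -154, a CCAAT box on the opposite strand from -117 to -113 and TATAAA from -31 to -26, counted from the start site. That spaced pattern occurred in 72 of 32851 windows of the same length (0.219%). G6pc1 held TATAAA from -29 to -24 and 2 CCAAT boxes, Fbp1 held 1 CCAAT box, and Irs1 and Irs2 each held 1 CACGTG, at -115 and -44, Irs2 with 2 CCAAT boxes. None of these letters occurred in the windows of Pck1 and Pygl or at the upstream start of Pklr, and no 2 matches overlapped. Over all windows TGACGTCA was present in 1.55%, GTAAACA in 3.17%, CACGTG in 6.02%, TATAAA in 12.4% and CCAAT in 33.8%. A match describes letters and not a bound site.

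The first question was how the high fat diet moved these transcripts in liver. Pklr fell 2.62-fold when the diet effect was averaged over the maternal groups, Fbp1 fell 1.45-fold and Pygl 1.38-fold, while Gys2, Insr, Irs1, Irs2, G6pc1 and Pck1 did not pass the test. A gene was called when edgeR's quasi-likelihood test gave a Benjamini-Hochberg adjusted p under 0.055 over all 13787 genes tested in liver with a log2 fold change of at least 0.58, the thresholds of the study's methods. All 9 members passed the filter on low counts in liver. By this rule 1 of 9 members was called in the averaged comparison, Pklr, against 1.26% of all genes (0.776% called lower). Dropping the fold limit and taking adjusted p under 0.05, 3 of 9 were lower, against 1.74% of all genes in either direction. The median log2 fold change of the 9 members was -0.15, and that of all genes -0.006. In the FED comparison edgeR called 0 of 9, against 0.109% of all genes (0.0798% lower), and 3 members had an unadjusted p under 0.05. There limma voom, voom with quality weights and DESeq2 each called 1 member, Pklr, and their shares over all genes are not given here. In the CR20 comparison 1 of 9 was called, again Pklr, against 0.522% (0.384% lower).

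Pklr (ENSMUSG00000041237, chromosome 3 from 89043449 to 89054619 on GRCm39) encodes the pyruvate kinase of liver and red blood cells. In FED-CTRL livers it ranged from 293 to 413 CPM with a median of 357, and in FED-HFD livers from 64.1 to 238 CPM with a median of 106. These ranges did not overlap. In CR20-CTRL livers it ran from 152 to 480 CPM (median 296) and in CR20-HFD livers from 82.8 to 158 CPM (median 122), and here the lowest CR20-CTRL mouse lay within the range of the HFD mice. Group means were 356 ± 48.6, 131 ± 73.1, 305 ± 128 and 121 ± 32.4 CPM (SD, n = 6) for FED-CTRL, FED-HFD, CR20-CTRL and CR20-HFD. In FED mice the log2 fold change was -1.44 (SE 0.30, 95% interval -2.07 to -0.81), with an edgeR adjusted p of 0.0551, just outside the threshold, and an exact two-sided permutation p of 0.0022, the smallest that the 924 splits of 6 against 6 can give. In CR20 mice it was -1.34 (SE 0.30, edgeR adjusted p 0.0431, exact permutation p 0.0065). Averaged over both it was -1.39 (SE 0.21, 95% interval -1.84 to -0.94, edgeR adjusted p 0.000482), and it remained called under every alternative tried. The call within CR20 mice was lost with plain limma voom, when only the 2 groups compared were fitted, when a range of animal numbers was added as a covariate, and without any 1 of CR20-CTRL mice 33, 47 and 49 or CR20-HFD mice 6, 7, 31, 32 and 46, with an adjusted p of up to 0.133.

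**Figure D1:**
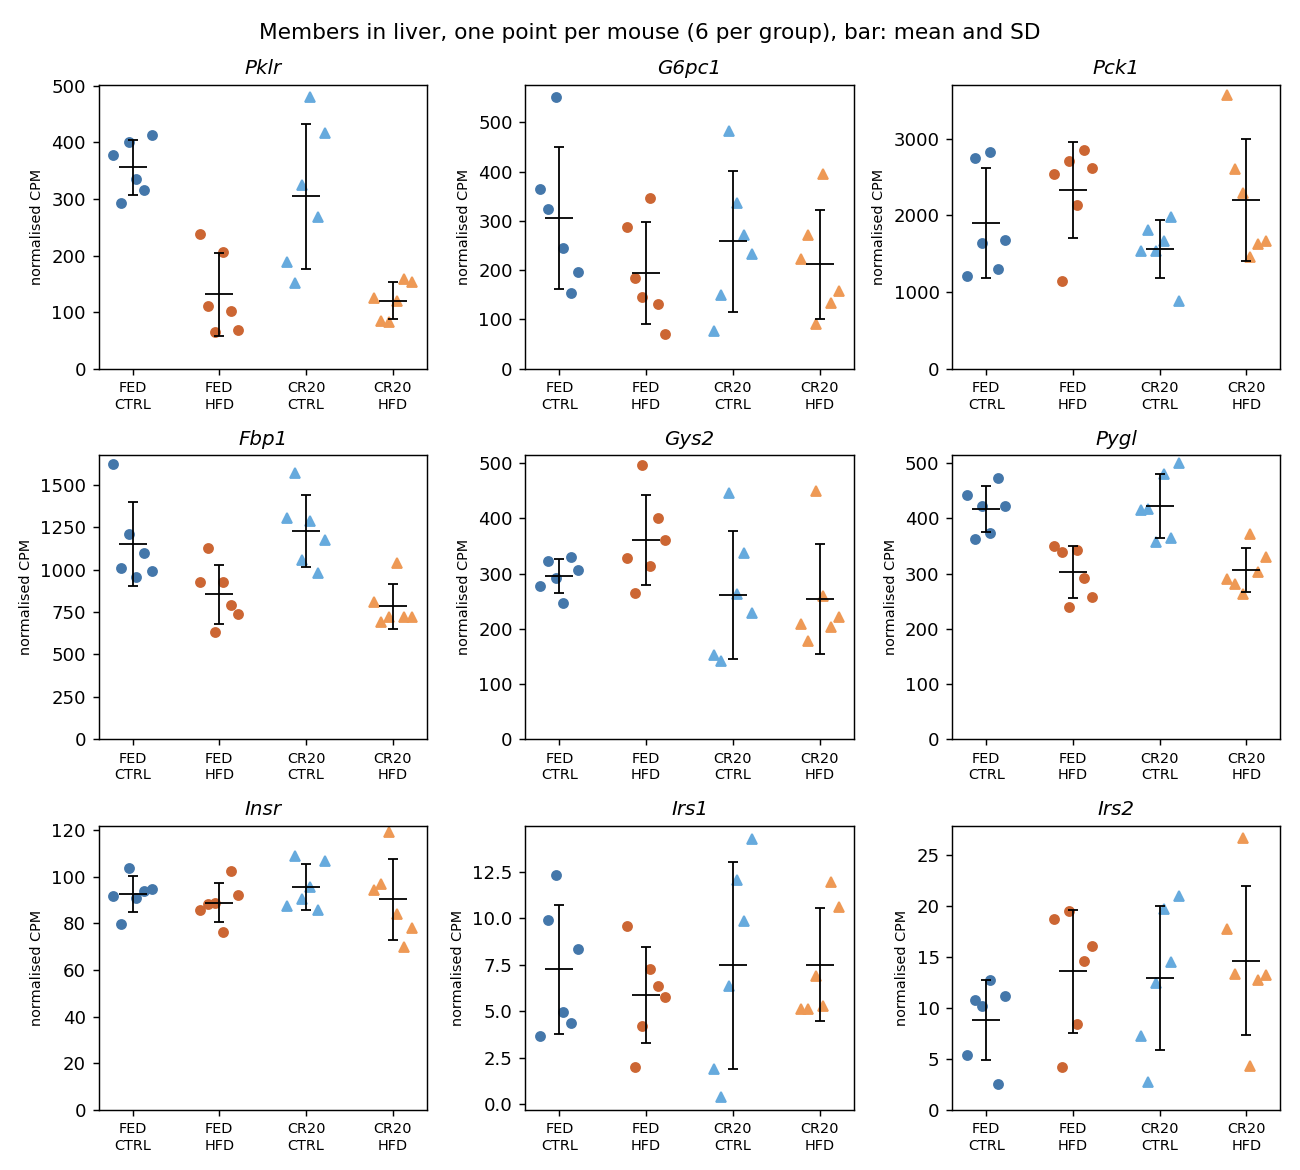
Normalised CPM of the 9 genes in liver, 1 panel per gene and 1 point per mouse in the 4 groups, with the mean and SD of 6 mice. Pklr of the FED-HFD mice lies between 64.1 and 238 CPM, under all FED-CTRL mice (293 to 413 CPM), while the groups overlap for Insr.

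Of the 3 gluconeogenic genes, Fbp1 passed the test and G6pc1 and Pck1 did not. Fbp1 (ENSMUSG00000069805, chromosome 13 from 63012567 to 63036263), fructose-1,6-bisphosphatase, fell on the high fat diet. It ran from 959 to 1624 CPM (median 1057) in FED-CTRL livers and from 633 to 1127 CPM (median 858) in FED-HFD livers. In CR20-CTRL livers the range was 979 to 1568 CPM (median 1231), and in CR20-HFD livers 692 to 1042 CPM (median 724). The ranges overlapped in both maternal groups, in CR20 mice through mouse 32, whose 1042 CPM stood apart from the other 5 CR20-HFD livers. The log2 fold change was -0.43 (SE 0.16, edgeR adjusted p 0.538) in FED mice and -0.65 (SE 0.16, edgeR adjusted p 0.0626) in CR20 mice. Averaged, it was -0.54 (SE 0.11, 95% interval -0.77 to -0.30, edgeR adjusted p 0.0092), under the fold limit, and -0.47 (edgeR adjusted p 0.0224) without the livers of CR20-CTRL mice 4 and 5. In CR20 mice Fbp1 was called as well by voom with quality weights, by DESeq2 and with another filter on low counts.

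G6pc1 (ENSMUSG00000078650, chromosome 11 from 101258369 to 101268729), the catalytic subunit of glucose-6-phosphatase, which releases free glucose, varied widely between livers of 1 group. It ran from 154 to 552 CPM (median 285) in FED-CTRL, 70.1 to 347 (median 165) in FED-HFD, 76.2 to 483 (median 252) in CR20-CTRL and 90.4 to 395 (median 190) in CR20-HFD. All groups overlapped, and the averaged log2 difference was -0.47 (SE 0.29, 95% interval -1.08 to 0.14, edgeR adjusted p 0.516). Pck1 (ENSMUSG00000027513, chromosome 2 from 172994744 to 173001066), cytosolic phosphoenolpyruvate carboxykinase, had the opposite sign. It ran from 1207 to 2820 CPM (median 1662) in FED-CTRL, 1148 to 2851 (median 2576) in FED-HFD, 882 to 1985 (median 1597) in CR20-CTRL and 1454 to 3566 (median 1978) in CR20-HFD. Its averaged log2 difference was 0.39 (SE 0.18, 95% interval 0.01 to 0.77), with an unadjusted p of 0.041 and an edgeR adjusted p of 0.346, so that it did not pass.

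For glycogen, the enzyme of breakdown fell and that of synthesis did not pass. Pygl (ENSMUSG00000021069, chromosome 12 from 70237585 to 70278262), liver glycogen phosphorylase, ran from 363 to 473 CPM (median 423) in FED-CTRL livers and from 240 to 349 CPM (median 315) in FED-HFD livers, with no overlap. In CR20-CTRL it was 358 to 501 CPM (median 416) and in CR20-HFD 263 to 372 CPM (median 296), where the ranges overlapped. The log2 fold change was -0.46 in FED mice (SE 0.12, edgeR adjusted p 0.264, exact permutation p 0.0022) and -0.46 in CR20 mice (SE 0.12, edgeR adjusted p 0.104, exact permutation p 0.0065). Averaged, it was -0.46 (SE 0.088, 95% interval -0.64 to -0.28, edgeR adjusted p 0.0046). Pklr and Pygl were the 2 of 9 members whose FED-CTRL and FED-HFD livers did not overlap, against 0.791% of all genes tested.

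Gys2 (ENSMUSG00000030244, chromosome 6 from 142368339 to 142418841), liver glycogen synthase, ran from 246 to 329 CPM (median 299) in FED-CTRL, 264 to 496 (median 344) in FED-HFD, 142 to 446 (median 246) in CR20-CTRL and 179 to 449 (median 215) in CR20-HFD. The groups overlapped, and the averaged diet difference was 0.12 on the log2 scale (SE 0.17, edgeR adjusted p 0.823). The 2 lowest values, 142 and 153 CPM, were those of CR20-CTRL mice 5 and 4, whose livers also had a high red blood cell sum, up to 691 CPM in mouse 4 against a lowest value of 68.1 CPM. In the CR20-HFD group mouse 31 stood apart at 449 CPM. Whether these libraries set the spread of Gys2 was not tested.

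The receptor and its adaptors gave no call for diet. Insr (ENSMUSG00000005534, chromosome 8 from 3172061 to 3329647) was the most even member. It ran from 79.7 to 103.8 CPM in FED-CTRL, 76.4 to 102 in FED-HFD, 85.7 to 109 in CR20-CTRL and 70.0 to 119 in CR20-HFD, with medians between 88.5 and 92.9. Its averaged log2 difference was -0.07 (SE 0.084), and the 95% interval, -0.24 to 0.11, lay within the fold limit on both sides. Irs2 (ENSMUSG00000038894, chromosome 8 from 11034681 to 11059499) had medians of 10.51, 15.4, 13.5 and 13.3 CPM in FED-CTRL, FED-HFD, CR20-CTRL and CR20-HFD, within a range of 2.51 to 26.7 CPM, and Irs1 (ENSMUSG00000055980, chromosome 1 from 82210822 to 82269338) had medians of 6.64, 6.04, 8.09 and 6.09 CPM within a range of 0.379 to 14.3 CPM. The averaged log2 differences were 0.40 for Irs2 (SE 0.31, 95% interval -0.25 to 1.05) and -0.15 for Irs1 (SE 0.35, 95% interval -0.88 to 0.58). These intervals are several times wider than that of Insr. The lowest Irs1 values, 0.379, 1.88 and 1.996 CPM, were those of CR20-CTRL mice 5 and 4 and FED-HFD mouse 11.

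**Figure D2:**
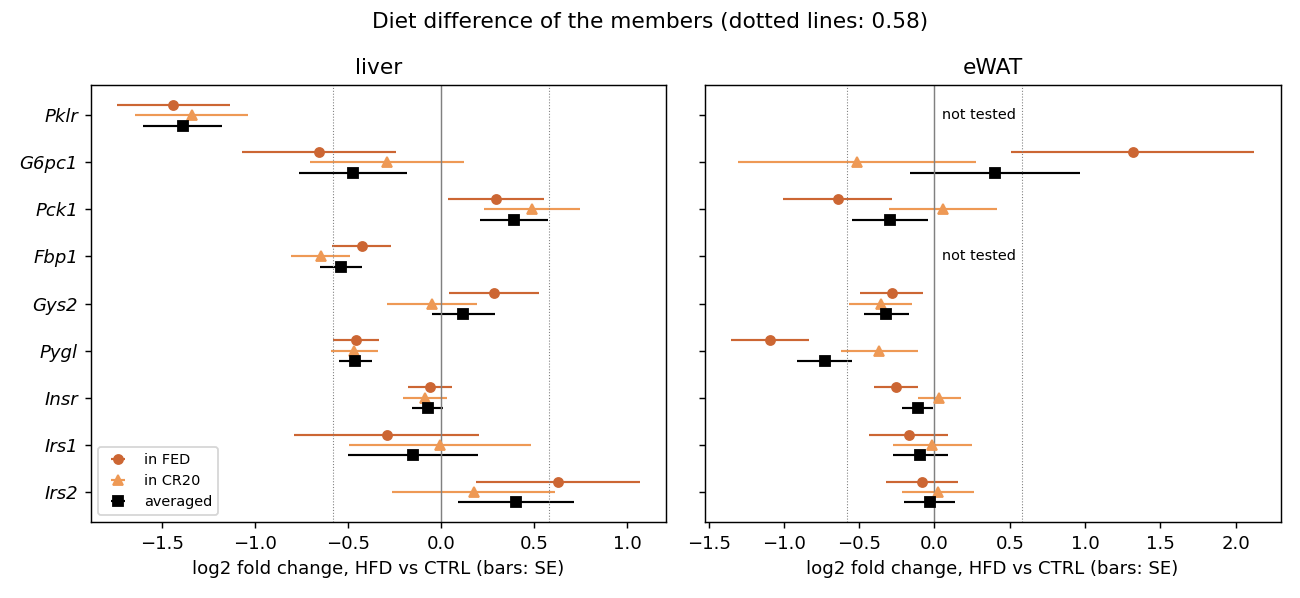
Log2 fold change of HFD against CTRL with its SE for each gene in liver and eWAT, for FED mice (circles), CR20 mice (triangles) and the average of both (squares), with dotted lines at the fold limit of 0.58. In liver Pklr lies at -1.44, -1.34 and -1.39, while the 3 symbols of Insr lie between -0.08 and -0.06.

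The second question was whether maternal restriction moved the same transcripts or their response to diet, and the tests called none. Between CR20-HFD and FED-HFD livers 0 of 9 were called (1 had an unadjusted p under 0.05, and edgeR called 0% of all genes). That member was Gys2, with a log2 difference of -0.51 (SE 0.24, 95% interval -1.02 to -0.003, unadjusted p 0.0465, edgeR adjusted p 1). Between CR20-CTRL and FED-CTRL livers 0 of 9 were called and 0 had an unadjusted p under 0.05, against 0% of all genes. With CR20 against FED averaged over diets the count was again 0 of 9, with 0 at an unadjusted p under 0.05, against 0% of all genes, and Gys2 came nearest at -0.34 (SE 0.17, unadjusted edgeR p 0.057). The difference between the diet effects of CR20 and FED mice was called for 0 of 9, with 0 at an unadjusted p under 0.05, against 0% of all genes. Both voom fits and DESeq2 also called 0 members in each of these 4 comparisons. For Pklr this difference was 0.10 (SE 0.42, 95% interval -0.78 to 0.98), an interval that still holds differences larger than the fold limit. For Fbp1 it was -0.22 (SE 0.22, 95% interval -0.68 to 0.24), and for Pygl -0.008 (SE 0.17, 95% interval -0.37 to 0.36), which lay within the fold limit.

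Other genes of the same pathways were counted in liver for the averaged diet comparison, each list without the 9 members. The glycolysis list had 25 of 25 genes tested, 0 called and 7 at an unadjusted p under 0.05. At an adjusted p under 0.05 without the fold limit 3 of its genes were lower, against 1.74% of all genes in either direction, among them Gpi1, glucose-6-phosphate isomerase, at -0.50 (edgeR adjusted p 0.0336) and Eno1, an enolase, at -0.35 (edgeR adjusted p 0.0409). Voom with quality weights and DESeq2 each called 1 gene of this list, and plain voom called 0. The shares of all genes called by these tools are not given here, for this list or the next ones. The median of the list was -0.08, near that of all genes.

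In the gluconeogenesis list 16 of 18 genes were tested, with 0 called, 6 at an unadjusted p under 0.05 and a median of -0.06. The leading genes there were Sds, serine dehydratase, at -0.69 (edgeR adjusted p 0.0753), Got1, cytosolic aspartate aminotransferase, at -0.70 (edgeR adjusted p 0.119), and Gpt, alanine aminotransferase, at 0.28 (edgeR adjusted p 0.216). DESeq2 called 2 genes of this list, voom with quality weights 1 and plain voom 0. In the glycogen list 21 of 24 were tested, with 0 called by any of these tools, 3 at an unadjusted p under 0.05 and a median of -0.12, and Ugp2, which makes UDP-glucose, led at -0.48 (edgeR adjusted p 0.061), ahead of Stbd1 at -0.55 (edgeR adjusted p 0.142) and Gbe1 at -0.30 (edgeR adjusted p 0.336). In the insulin signalling list 42 of 44 were tested, with 0 called (1 by DESeq2, 0 by both voom fits), 6 at an unadjusted p under 0.05 and a median of -0.007. Ptprf, a receptor phosphatase, was at -0.38 (edgeR adjusted p 0.0824), and Socs1 at 1.82 (edgeR adjusted p 0.102). Over all genes tested 13.2% had an unadjusted p under 0.05.

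Among 24 transcription factors and cofactors of hepatic glucose and lipid metabolism 1 was called, against 1.26% of all genes. Srebf1, whose product SREBP-1 drives lipogenic genes, fell by 1.18 on the log2 scale (SE 0.24, edgeR adjusted p 0.0069). It ran from 466 to 655 CPM in FED-CTRL livers and from 123 to 320 CPM in FED-HFD livers, without overlap, against 0.791% of all genes tested. Cebpa at -0.42 and Mlx at -0.27 followed it and did not pass. A list of genes known to follow fasting or insulin withdrawal had 11 of 12 tested, 0 called by edgeR or the other tools, 0 at an unadjusted p under 0.05 and a median of 0.22, with Cpt1a at 0.28, Angptl4 at 0.53 and Gadd45g at 0.72.

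A few genes were added after the values had been seen, to place Pklr, and their diet differences averaged over the maternal groups are given. The lipogenic enzymes Elovl6, Fasn and Acaca fell on the high fat diet, by 2.24 (SE 0.34, edgeR adjusted p 0.0004), 2.02 (SE 0.46, edgeR adjusted p 0.0202) and 1.41 (SE 0.27, edgeR adjusted p 0.0046) on the log2 scale. Within FED mice their edgeR adjusted p was 0.143, 0.461 and 0.343 in this order, and within CR20 mice 0.0150, 0.222 and 0.0634. The Fasn ranges of the diets overlapped in both maternal groups. These enzymes were also the genes closest to Pklr between livers, as given below. Mlxipl, which encodes the carbohydrate response factor ChREBP, was at -0.27 (SE 0.31, edgeR adjusted p 0.768). Foxo1 and Ppargc1a, regulators of gluconeogenesis, were at 0.23 and -0.12 and did not pass.

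Among pericentral, periportal and macrophage markers few genes were called for diet in liver. In the pericentral list 1 of 9 genes was called, against 1.26% of all genes, Cyp1a2, at 0.80 (edgeR adjusted p 0.0198), with a median of 0.41, and its sum was 8326 to 12609 CPM in FED-CTRL, 10059 to 18723 in FED-HFD, 5664 to 10913 in CR20-CTRL and 10328 to 14215 in CR20-HFD. The periportal list had 0 called and a median of -0.22. Among macrophage markers 1 of 10 was called, against 1.26% of all genes, Marco, at 1.11 (edgeR adjusted p 0.0064). The macrophage sum was 530 to 715 CPM in FED-CTRL, 541 to 865 in FED-HFD, 411 to 1219 in CR20-CTRL and 520 to 873 in CR20-HFD. The diets thus overlapped in both maternal groups, and the highest value was that of CR20-CTRL mouse 4. Across the 24 livers, with values centred on the group means, the pericentral sum had a Pearson r of 0.65 with Gys2 and -0.67 with Fbp1, given as a description. The part of these markers in the results on Pklr, Fbp1 and Pygl was not tested. In bulk liver, fewer cells of a type and less RNA per cell cannot be told apart.

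Levels of the 9 genes are compared per length, as RPKM, the CPM divided by the kilobases of exon that GENCODE M39 gives the gene. In liver the medians over 24 mice put Pck1 first at 472 RPKM and Fbp1 second at 419, with Pck1 above Fbp1 in 14 of 24 mice, so that these neighbours were not separated. Gys2 at 107 and G6pc1 at 93.6 RPKM followed, with Gys2 higher in 12 of 24. Pklr at 52.5 lay under G6pc1 in 20 of 24 mice and level with Pygl, at 51.4 RPKM, which it exceeded in 12 of 24. The signalling genes were far lower, Insr at 6.62, Irs2 at 1.73 and Irs1 at 0.679 RPKM, and Irs2 exceeded Irs1 in 23 of 24 livers. These medians and counts pool the 4 groups, while Pklr, Fbp1 and Pygl were lower on the high fat diet. The order of neighbours within 1 diet can therefore differ from the pooled order.

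**Figure D3:**
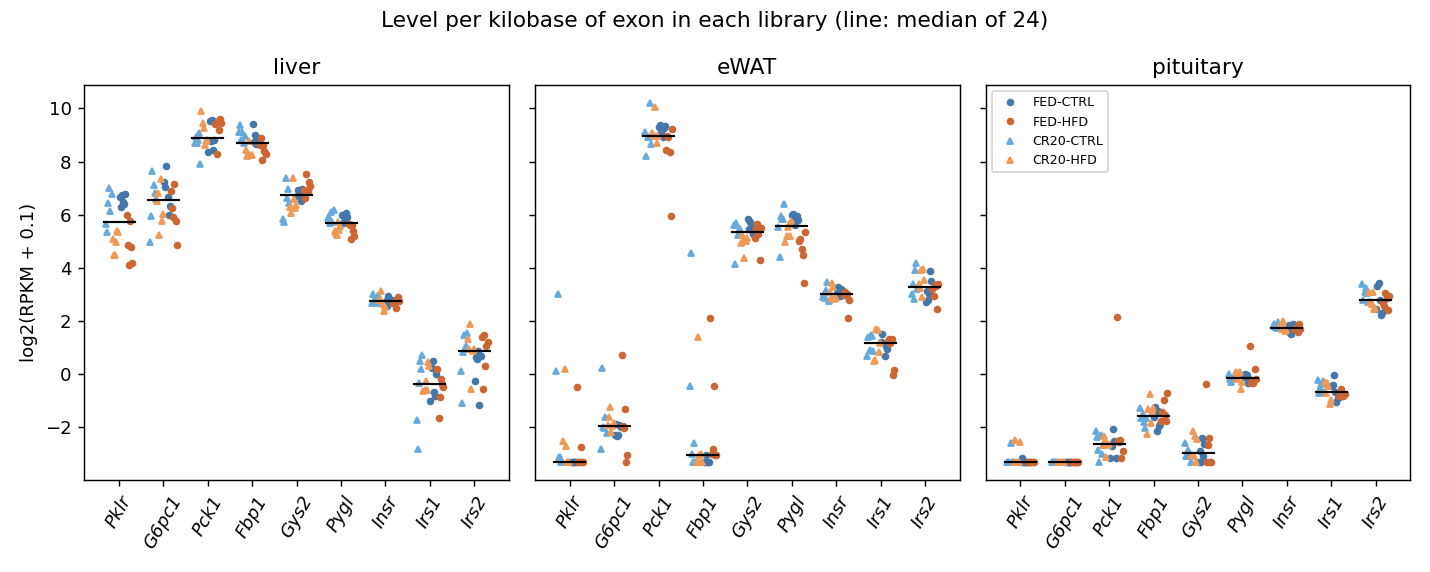
Level of each gene as log2 of RPKM plus 0.1 in liver, eWAT and pituitary, each tissue scaled on its own, 1 point per library, with a line at the median of 24 mice. In liver the medians run from 472 RPKM for Pck1 to 0.679 for Irs1, while Pklr, G6pc1 and Fbp1 lie near the bottom of the scale in the other 2 tissues.

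The liver isozymes predominated over their partners in liver. Gys2 exceeded Gys1, the synthase of muscle and most other tissues, by a median ratio of 262 in liver and 3.10 in eWAT, while in pituitary the ratio was 0.0051. Pygl exceeded the brain phosphorylase Pygb by 143 in liver, was level with it in eWAT at 1.10 and lay under it in pituitary at 0.0397. Pklr exceeded Pkm, the pyruvate kinase of other tissues, by 27.1 in liver. The mitochondrial Pck2 was lower than Pck1 by a ratio of 1601 in liver and 129 in eWAT. The ratio of Irs2 to Irs1 was 2.27 in liver, 5.33 in eWAT and 13.1 in pituitary.

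In a joint edgeR fit of all 72 libraries 8 of 9 members differed between liver and eWAT past both limits, against 66.1% of all genes, whose median difference was -0.22. Fbp1 was higher in liver by 11.29 on the log2 scale, Pklr by 10.20, G6pc1 by 9.60, Gys2 by 2.23, Pygl by 0.96 and Pck1 by 0.76. Without the eWAT libraries of mice 5, 10 and 13 the first 3 were 13.57, 12.18 and 10.29, and the same 8 genes passed. Insr, at 0.48, was past the p limit and not the fold limit. Irs1 at -0.68 and Irs2 at -1.84 were lower in liver than in fat. Against pituitary 9 of 9 were called, against 76.5% of all genes, 8 higher in liver and Irs2 lower, at -1.47. RPKM were scaled within each tissue and so give the order of genes in 1 tissue only: between liver and eWAT the sign for Pck1 and Insr was opposite on that scale and in the joint fit. In eWAT the medians were 503 RPKM for Pck1, 47.9 for Pygl, 40.7 for Gys2, 9.62 for Irs2, 8.06 for Insr and 2.13 for Irs1. Pck1 thus had the highest median in fat as in liver, where it was not separated from Fbp1. Both adaptors stood closer to the enzymes in fat. In pituitary Irs2 led at 6.80 RPKM, followed by Insr at 3.23, Pygl at 0.799 and Irs1 at 0.523. G6pc1 had 0 counts in all 24 pituitary libraries, where 3 counts would be 0.109 to 0.164 CPM, a limit that covers counting error only.

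In eWAT 7 of 9 members passed the filter, without Pklr and Fbp1, and Pygl was lower on the high fat diet in sons of FED dams. It ran from 346 to 455 CPM (median 420) in FED-CTRL fat and from 74.8 to 287 CPM (median 204) in FED-HFD fat, without overlap. This was 1 of 7 members called, against 8.01% of all genes, and 1 of 7 without overlap, against 6.76%. The log2 fold change was -1.09 (SE 0.26, edgeR adjusted p 0.0092, exact permutation p 0.0022), a 2.13-fold fall. In CR20-CTRL fat Pygl ran from 150 to 589 CPM (median 399) and in CR20-HFD fat from 222 to 376 CPM (median 291), which overlapped, with a log2 difference of -0.37 (SE 0.26, unadjusted edgeR p 0.168). Of the 7 members 0 were called in CR20 mice, with 0 at an unadjusted p under 0.05 and 0 by both voom fits and DESeq2, against 0% of all genes. The difference between the 2 diet effects was 0.73 (SE 0.36, 95% interval -0.03 to 1.48, edgeR adjusted p 0.289), so it was not shown that the maternal groups differ.

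The lowest Pygl value, 74.8 CPM, was that of FED-HFD mouse 23, whose fat also had the lowest adipocyte sum, the highest macrophage sum at 2629 CPM and a fibroblast sum of 9664 CPM. Without that library the fold change was -0.93 (edgeR adjusted p 0.0182), and with the libraries of mice 5, 10, 13 and 23 left aside it was -0.81 (edgeR adjusted p 0.0194). Adipocyte sums were 29443 to 35221 CPM in FED-CTRL, 10247 to 31296 in FED-HFD, 13192 to 43526 in CR20-CTRL and 33089 to 38389 in CR20-HFD, and macrophage sums were 598 to 833, 879 to 2629, 590 to 1049 and 601 to 826 CPM in the same order. Every FED-HFD fat library thus lay above every FED-CTRL one in its macrophage sum. Their part in the lower Pygl was not tested.

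**Figure D4:**
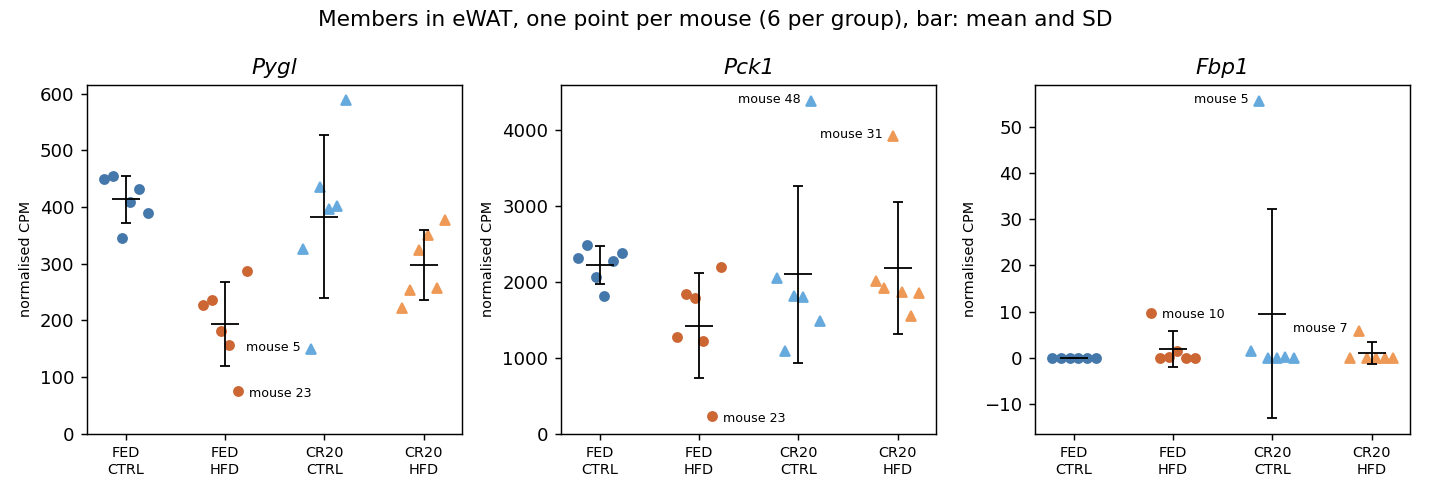
Normalised CPM of Pygl, Pck1 and Fbp1 in eWAT, 1 point per mouse in the 4 groups, with the mice that stand apart labelled by number. Pygl of the FED-HFD mice lies between 74.8 and 287 CPM, under all FED-CTRL mice, and mouse 23 is the lowest for Pygl and Pck1.

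The other comparisons in fat gave 0 calls among the 7 members in the main edgeR fit. Between CR20-HFD and FED-HFD fat Pygl was at 0.62 (SE 0.26, edgeR adjusted p 0.108) and 0 of 7 were called, 1 at an unadjusted p under 0.05 and 0 by the other tools, against 9.73% of all genes. Pygl was called there when 1 certain library was left out, FED-HFD mouse 40 (edgeR adjusted p 0.0496) or CR20-CTRL mouse 5 (edgeR adjusted p 0.0472). With mice 5, 10, 13 and 23 aside the difference of Pygl was 0.33. Between CR20-CTRL and FED-CTRL fat 0 of 7 were called, against 0% of all genes. The difference of the diet effects was called for 0 of 7, against 2.42%, and CR20 against FED averaged over diets for 0 of 7, against 3.96%. These 3 comparisons had 0 members at an unadjusted p under 0.05, and the other tools called 0. For diet averaged over maternal groups 0 of 7 were called, 2 at an unadjusted p under 0.05, against 0.175%. Those were Pygl, at -0.73 (SE 0.18, edgeR adjusted p 0.0798), which voom with quality weights and DESeq2 called, and Gys2, at -0.32 (SE 0.15, edgeR adjusted p 0.272).

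Pck1, which in fat makes the glycerol backbone for fatty acid re-esterification, ran from 1809 to 2488 CPM (median 2300) in FED-CTRL and from 228 to 2200 CPM (median 1527) in FED-HFD fat, with mouse 23 the lowest. In CR20-CTRL fat it was 1090 to 4386 CPM (median 1803) and in CR20-HFD fat 1546 to 3925 CPM (median 1893). The FED diet difference was -0.64 (SE 0.36, edgeR adjusted p 0.268) and was called only by voom with quality weights, at -0.58 (adjusted p 0.0514). Insr ran from 58.1 to 151 CPM over the 24 fat libraries, with the lowest value again in mouse 23, and Gys2 from 47.3 to 151 CPM. Irs1 ran from 8.08 to 29.3 CPM and Irs2 from 39.9 to 133 CPM, with no call in any comparison.

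Pklr and Fbp1 were near the counting limit in most fat libraries. In FED-CTRL fat Pklr had 0 counts in all 6 libraries and Fbp1 had 1 count in 1 library. The higher values belonged to single mice: CR20-CTRL mouse 5 with 30.1 CPM of Pklr and 55.6 of Fbp1, FED-HFD mouse 10 with 2.28 and 9.79, CR20-HFD mouse 7 with 3.87 and 5.88, and CR20-CTRL mouse 4 with 3.67 and 1.49. Mice 10 and 5 also held 514 and 405 CPM of Alb in fat, against a highest value of 24.6 CPM in FED-CTRL fat. The hepatocyte sum was 20.7 CPM in mouse 7 and 25.0 CPM in mouse 4, against 18.5 to 38.6 CPM in FED-CTRL fat. In FED-HFD mouse 13 this sum was 149 CPM. FED-HFD libraries other than that of mouse 10 held at most 0.183 CPM of Pklr and 1.46 of Fbp1. The summed epididymis and testis markers were 135 CPM in mouse 4, 53.0 CPM in mouse 5 and 32.8 CPM in CR20-HFD mouse 6, and at most 0.310 CPM in the other 21 fat libraries. The part of hepatocyte or other RNA in these values was not tested.

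In pituitary 5 of 9 members were tested, Irs1, Irs2, Insr, Fbp1 and Pygl, and 0 were called in any comparison. None had an unadjusted p under 0.05, and both voom fits and DESeq2 called 0, while edgeR called 0% of all genes in each comparison other than diet averaged over maternal groups, with 0.006%. Over the 24 libraries Irs2 ran from 33.4 to 78.7 CPM, Insr from 37.8 to 53.0, Irs1 from 3.33 to 8.18, Pygl from 4.04 to 13.7 and Fbp1 from 0.258 to 1.18 CPM. The highest Pygl value was that of FED-HFD mouse 10, whose library also held 15.9 CPM of Pck1, 1.76 of Gys2 and 14.6 of the adipocyte gene Adipoq.

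Whether the diet effect itself differed between tissues was tested in the joint fit. In FED mice 1 of 9 members was called between liver and eWAT, against 4.16% of all genes. This was Fbp1, at -7.14 (SE 2.06, edgeR adjusted p 0.0316), a fitted value that rests on FED-CTRL fat with a single count and so is no bound on a fold. With the mouse as a block, which uses the pairing of tissues, it was -6.17 (adjusted p 0.109), with plain voom -3.71 (adjusted p 0.0632), and without the eWAT libraries of mice 5, 10 and 13 it was -2.59 (edgeR adjusted p 0.683). In CR20 mice 0 of 9 were called (1 at an unadjusted p under 0.05, 0 by voom), against 0.297%. Between liver and pituitary 0 of 9 were called in FED mice (3 at an unadjusted p under 0.05, 0 by voom), against 0.0677%, and 0 of 9 in CR20 mice (0 at an unadjusted p under 0.05, 0 by voom), against 0.224%. Pygl, at -0.46 in liver and -1.09 in eWAT of FED mice, had a liver minus eWAT difference of 0.62 (SE 0.29, edgeR adjusted p 0.285).

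Between mice of 1 group, several members moved together in liver. Over 24 mice, with log2 CPM centred on the group mean, 6 of 36 pairs had an adjusted p under 0.05, 4 of them positive (two-sided permutation test, 100000 resamples within groups, Benjamini-Hochberg over the 36 pairs). Fbp1 and Pygl rose and fell together, with a Pearson r of 0.67 (permutation p 0.00098, adjusted 0.0118), a Spearman rho of 0.72 (permutation p 0.00047) and r 0.65 without the 2 mice farthest out in Fbp1. Pklr and Pygl had r 0.64 (permutation p 0.0056, adjusted 0.0338), rho 0.64 (permutation p 0.0055) and r 0.65 without 2 mice. Pck1 and Pygl were opposed, with r -0.66 (permutation p 0.00067, adjusted 0.0118), rho -0.66 (permutation p 0.00071) and r -0.60 without 2 mice. Thus mice with more phosphorylase transcript had more Fbp1 and Pklr and less Pck1 than others of their group.

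Irs1 and Irs2 had the highest r of all pairs, 0.71 (permutation p 0.00055, adjusted 0.0118), with rho 0.55 (permutation p 0.0127) and r 0.52 without mice 5 and 11. Pklr and Irs1 had r 0.64 (permutation p 0.0019, adjusted 0.0137), rho 0.62 (permutation p 0.0031) and r 0.55 without 2 mice, and Fbp1 and Irs2 had r -0.65 (permutation p 0.0018, adjusted 0.0137), rho -0.51 (permutation p 0.0192) and r -0.61 without 2 mice. With ranks in place of values 4 of 36 pairs passed. Across tissues of the same mouse 0 of 16 relations passed, the smallest unadjusted permutation p being 0.124.

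The levels of Irs1 and Irs2 moved with a score that sets long genes against short ones. After the values had been seen, the median centred log2 CPM of 1399 genes with at most 2000 exonic bases was subtracted from that of 4274 genes with at least 8000. This score was lowest in mouse 11 (-0.55), mouse 5 (-0.53) and mouse 4 (-0.46), and the group means were 0.075, -0.088, -0.0009 and -0.0078 for FED-CTRL, FED-HFD, CR20-CTRL and CR20-HFD. Over the 9 members, Irs1 had r 0.88 with it (permutation p 1e-05, the smallest that the resamples can give, adjusted 4.5e-05), rho 0.87 (permutation p 2e-05) and r 0.86 without 2 mice. Irs2 had r 0.80 (permutation p 1e-05, adjusted 4.5e-05), rho 0.71 (permutation p 0.00053) and r 0.73 without 2 mice. Fbp1 had r -0.53 (permutation p 0.0113, adjusted 0.0338) with rho -0.37 (permutation p 0.105), and the other 6 had an adjusted p over 0.05, Pklr coming nearest at r 0.54 (adjusted permutation p 0.0588). Insr, with 13776 exonic bases against 9345 for Irs1 and 7364 for Irs2, had r 0.094 with the score, and Pygl with 7008 had r 0.037. The part of the length of a member in its relation with the score was not tested, nor was whether the score reflects the library or the liver. As a description, Irs1 also had r -0.77 with the red blood cell sum, -0.71 with the macrophage sum, 0.71 with the periportal sum and 0.70 with the summed level of the clock list, with which Irs2 had r 0.77 and Fbp1 -0.58. In the clock list 15 of 16 genes were tested for diet averaged over maternal groups, with 0 called by edgeR and 2 at an unadjusted p under 0.05, and a median of -0.18. The part of these measures in the relations between members, such as Irs1 with Irs2, Pklr with Irs1 and Fbp1 with Irs2, was not tested.

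**Figure D5:**
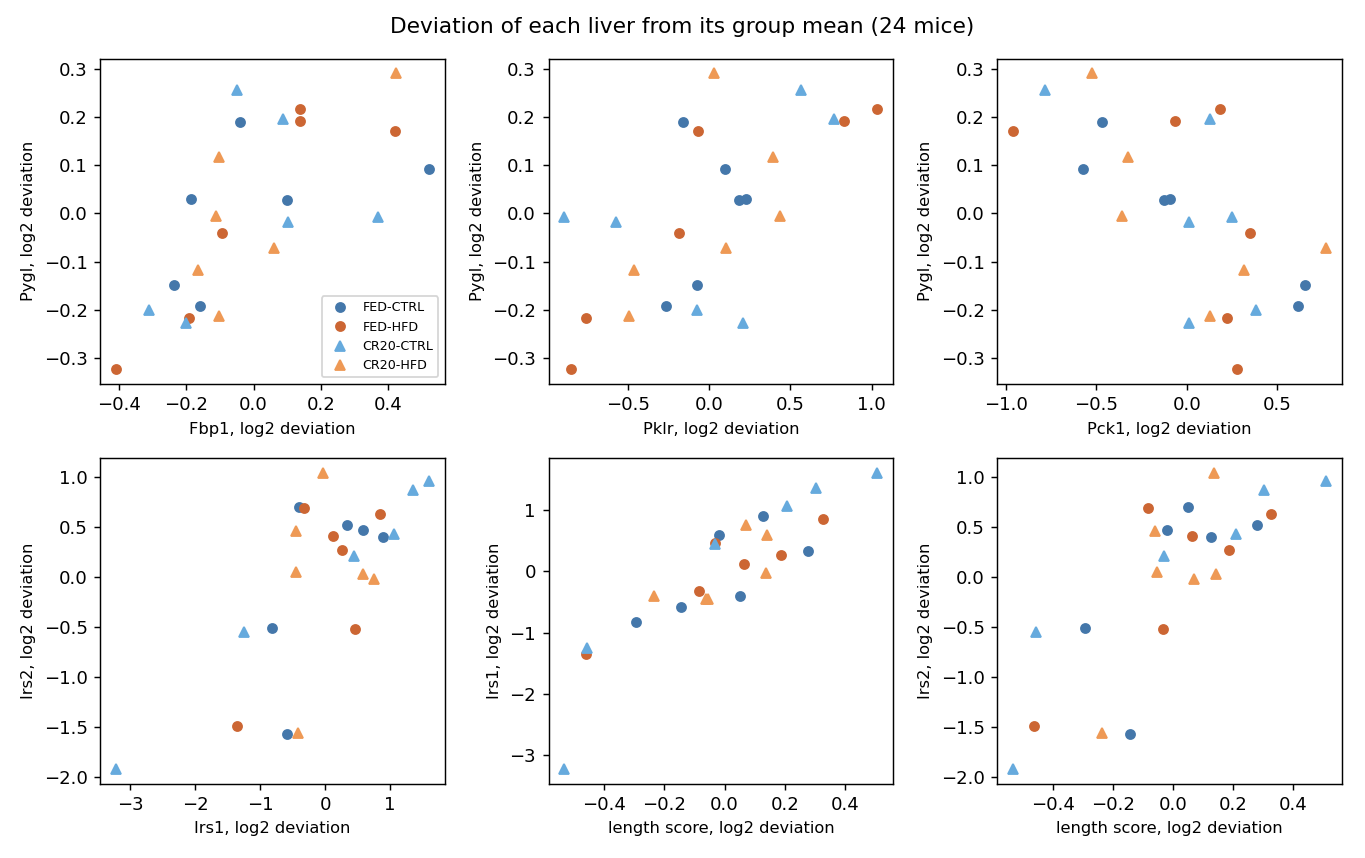
Deviations of log2 CPM from the group mean in 24 livers for 4 gene pairs, and Irs1 and Irs2 against the difference between long and short genes, 1 point per mouse coloured by group. Fbp1 and Pygl rise together (r 0.67), Pck1 and Pygl are opposed (r -0.66), and the score follows Irs1 (r 0.88).

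The genes whose centred liver values were most like each member were taken over 13746 genes and 24 mice, as a description. Pklr was closest to Fasn (r 0.93), Elovl6 (0.92) and Acaca (0.92). Fbp1 was closest to Uox (r 0.89), urate oxidase, and Ptgr3 (0.87). G6pc1 was closest to Fbxo34 (r 0.83), Ppp1r3b (0.82), a glycogen-targeting subunit of protein phosphatase 1, and Cers2 (0.79), and Pck1 to Arhgap27 (0.77), Tnfrsf1b (0.77) and Srrm4 (0.76). Gys2 was closest to Gm45819 (r 0.86), Tctn2 (0.81) and Cipc (0.81), a partner of the clock protein CLOCK, and Pygl to Ptk6 (0.81), Tuba1a (0.80) and Xpot (0.77). Insr was closest to Acot12 (r 0.82), Fbxo9 (0.78) and Dyrk2 (0.75). Irs1 was closest to Exph5 (r 0.97), Nktr (0.95) and Pknox1 (0.94), and Irs2 to Klhl3 (0.93), Trrap (0.92) and Myh14 (0.92).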

How the data were processed

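RNA had been extracted from liver, eWAT and pituitary of each mouse, made into stranded TruSeq libraries and sequenced in pairs. The values deposited by the authors are raw counts per Ensembl gene. Per the study's methods, reads were trimmed with Trimmomatic, aligned with STAR to GRCm39 (annotation release 104) and counted with featureCounts. The strand setting is not given in the sources used here, so overlapping genes may share counts.

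Groups came from the sample labels. The members and lists were chosen with earlier results of these data known. Counts were tested per tissue with edgeR 4.0.16 in R 4.3.3 (filterByExpr, TMM, quasi-likelihood fit of the 4 groups, Benjamini-Hochberg over all genes tested), calling adjusted p under 0.055 with a log2 fold change of at least 0.58, which are the study's thresholds. The test named in the study's methods, voom with quality weights in limma 3.58.1, was an alternative because the values are counts, as was DESeq2 1.42.0. Shares of all genes called are those of edgeR, and none is given for the other tools. Intervals use the t distribution on the residual degrees of freedom. CPM use TMM sizes, log2 CPM a prior count of 2, and names and lengths GENCODE M39. Tissues were compared in 1 fit of 72 libraries. Exact permutation tests and correlations used scipy 1.17.1. Scripts were tested on simulated data.

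All 9 members were named, the 3 genes of each list with the smallest p in the averaged liver diet comparison, and the 3 genes with the highest r to each member. Some of these genes are not reported here. Library totals were 9842813 to 27601208 counts. Tissues were paired by mouse number, since each mouse gave all 3: deviations from group means had median r of 0.059 (liver and eWAT), 0.072 (liver and pituitary) and 0.039 (eWAT and pituitary), over 0.1 in 8, 11 and 3 of 24 mice. Mice are the replicates, and litters are not labelled, so litter mates may be counted as independent.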

Additional observations from a re-analysis of the deposited data

Results flagged for a closer look

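Over 100 groups of 6 values, 17 held a value far from the other 5 by Dixon's test. Chance passes this test in about 1 of 20 groups of normally distributed values. Several of the flagged groups in eWAT and pituitary lay at or near 0 CPM, where that share need not hold. In liver these were Fbp1 of CR20-HFD mouse 32 at 1042 CPM and Gys2 of CR20-HFD mouse 31 at 449 CPM. In eWAT the groups were led by single mice. Pklr was at 30.1 CPM in CR20-CTRL mouse 5, 3.87 CPM in CR20-HFD mouse 7 and 2.28 CPM in FED-HFD mouse 10, and Fbp1 was at 55.6, 5.88 and 9.79 CPM in the same mice. G6pc1 was at 2.61 CPM in mouse 5 and 3.71 CPM in mouse 10. Pck1 was at 4386 CPM in CR20-CTRL mouse 48 and 3925 CPM in CR20-HFD mouse 31, and Insr was low at 58.1 CPM in FED-HFD mouse 23. In pituitary Pklr was at 0.239 CPM in CR20-CTRL mouse 47, and FED-HFD mouse 10 had Pck1 at 15.9, Gys2 at 1.76 and Pygl at 13.7 CPM. The diet effect on Fbp1 in FED mice differed between liver and eWAT by -7.14 on the log2 scale (edgeR quasi-likelihood test, adjusted p 0.0316), a value that rests on fat libraries at or near 0. The marker sums of these libraries stand in the report, and their part in the values was not tested.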

How the results depend on the processing

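Of 29 counts of members, 20 stayed within 1.5 times under every alternative and 9 did not. In liver, the FED diet comparison went from 0 to 1 (Pklr) with voom with quality weights, plain voom, DESeq2, no filter on low counts or livers 4 and 5 left aside, and leaving out 1 replicate at a time gave 0 to 1 (1 without FED-HFD mice 10 or 13 or CR20-CTRL mice 4, 5 or 47). The CR20 diet comparison went from 1 to 2 (Fbp1 added) with quality weights, DESeq2 or another filter (6 libraries over 1 CPM), and to 0 with plain voom, only the groups compared, or a range of animal numbers as a covariate, and leave-one-out gave 0 to 2 (0 without CR20-CTRL mice 33, 47 or 49 or CR20-HFD mice 6, 7, 31, 32 or 46). Diet averaged in liver went from 1 to 3 at an adjusted p under 0.05 with no fold limit, and leave-one-out gave 1 to 2 there, 0 to 1 for CR20-HFD against FED-HFD in eWAT and 0 to 1 for diet averaged in eWAT. In eWAT the FED diet comparison went from 1 to 2 with quality weights (Pck1), and diet averaged from 0 to 1 (Pygl) with quality weights, DESeq2 or the fat of mice 5, 10, 13 and 23 left aside. In pituitary 2 counts went from 0 to 1 without a filter (Pck1, by mouse 10). The difference of diet effects between liver and eWAT in FED mice went from 1 to 0 with the mouse as a replicate block, plain voom or the doubtful libraries left aside. With these left aside 3 uncalled differences turned sign, Fbp1 between liver and eWAT in CR20 mice from 2.68 to -1.87, and between liver and pituitary in FED mice Pck1 from -3.43 to 0.38 and Gys2 from -1.64 to 0.45. The libraries to leave aside were chosen after seeing the data. The block changed no other call. Causes were not tested. The averaged fall of Pklr in liver was called in every fit, from -1.54 to -1.30. For diet averaged in liver the intervals of G6pc1, Irs1 and Irs2 hold both 0 and differences past the fold limit.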
